A study of Mus musculus with 43 samples.

Results

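Tac1, Penk and Cck are the genes for the precursors of the tachykinins substance P and neurokinin A, of the enkephalins and of cholecystokinin. They were taken by name, as the 3 rows of the expression table whose Ensembl identifier belongs to one of these symbols, out of 10127 genes in all. RNA sequencing had been carried out on laser-captured hypothalamic nuclei of adult male C57/BL6 mice with a congenital paternal deletion of the Snord116 cluster (B6(Cg)-Snord116tm1.1Uta/J), a cluster of small nucleolar RNA genes of the Prader-Willi region that is read from the paternal allele. The fed mice had food ad libitum and the fasted mice went without food for 24 hours before dissection. All mice carried the deletion, no wild-type library was analysed here, and Snord116 RNA itself was not analysed here, so the genotype rests on the labels and every comparison is within it. The 41 libraries came from 6 fasted and 6 fed mice: 4 fasted and 5 fed from the arcuate nucleus (ARC), 5 fasted and 6 fed from the dorsomedial hypothalamus (DMH), 5 fasted and 5 fed from the paraventricular nucleus (PVN), and 6 fasted and 5 fed from the ventromedial hypothalamus (VMH).

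These 3 genes encode secreted signals that are cut out of larger precursor proteins. Prohormone convertases cut the precursors mostly at pairs of basic residues, and many of the products are amidated at their end. Substance P acts mainly on the tachykinin receptor encoded by Tacr1, enkephalins act on the mu and delta opioid receptors (Oprm1 and Oprd1), and cholecystokinin acts on the receptors encoded by Cckar and Cckbr. In the hypothalamus these peptides serve as transmitters of local and incoming neurons, and cholecystokinin is also a gut hormone that ends meals. The comparisons addressed how the RNA of each precursor was distributed over the nuclei and whether 24 hours without food changed it.

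The stretches that encode the finished peptides are shown because they are what the measured RNAs deliver. They were read from the GENCODE M21 transcripts (GRCm38), on the strand of the gene, 5′ to 3′. Tac1 (ENSMUSG00000061762) lies at chr6:7554879-7565834 on the plus strand, and its main coding transcript has 1230 bases with 390 of coding sequence. Substance P comes from exon 3, at chr6:7556732-7556764, and neurokinin A from exon 6, at chr6:7559101-7559130. Capitals mark the last 5 codons, which give the ending that tachykinins share.
Substance P: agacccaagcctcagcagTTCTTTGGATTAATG
Neurokinin A: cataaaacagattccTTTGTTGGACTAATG

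Penk (ENSMUSG00000045573) lies at chr4:4133531-4138819 on the minus strand. Its main transcript has 1449 bases, of which 804 are coding, and exon 2 holds 5 pentapeptides framed on both sides by a pair of basic residues. Of these, 4 are Met-enkephalin and 1 is Leu-enkephalin, so 1 Penk RNA carries several copies of the signal. The first 4 residues of enkephalin occur 7 times in the precursor. The 5 framed copies use 4 distinct codings. Capitals mark the pentapeptide and lower case the codons of the basic pairs.
Met-enkephalin, copy 1, chr4:4134328-4134354: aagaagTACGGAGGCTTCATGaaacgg
Met-enkephalin, copy 2, chr4:4134307-4134333: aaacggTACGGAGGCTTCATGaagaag
Met-enkephalin, copy 3, chr4:4134220-4134246: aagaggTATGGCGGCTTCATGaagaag
Met-enkephalin, copy 4, chr4:4133995-4134021: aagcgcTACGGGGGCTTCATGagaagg
Leu-enkephalin, chr4:4133935-4133961: aagaggTATGGGGGCTTCCTGaagcgc

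Cck (ENSMUSG00000032532) lies at chr9:121489824-121495694 on the minus strand. Its main transcript has 691 bases with 345 of coding sequence, and the 8 residues of the sulfated brain octapeptide come from exon 3, at chr9:121490107-121490130. Capitals mark the last 4 codons, the ending that cholecystokinin shares with gastrin.
Cholecystokinin octapeptide: gactacatgggcTGGATGGATTTT

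Values are CPM, read counts scaled to a common total per library. A mouse is named by its state and number, as in Fast-86. Between 1.94 M and 8.23 M reads (M for mega, median 4.10) stood behind each library, and 10, 15 and 16 libraries came from the 3 batches of capture and library preparation. Markers of the captured nuclei followed the labels. Npy was at least 195 CPM in ARC and at most 33.4 elsewhere, Npvf at least 56.5 in DMH and at most 6.30 elsewhere, Avp at least 395 in PVN and at most 10.04 elsewhere, and Fezf1 at least 172 in VMH and at most 21.9 elsewhere. The DMH captures also held the lateral hypothalamic genes Hcrt and Pmch, at a summed 203 to 800 CPM against at most 87.8 in the other nuclei. In captured tissue, fewer cells of a type and less RNA per cell cannot be told apart.

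The precursors had separate distributions over the nuclei. Tac1 was highest in VMH at 78.3 ± 17.7 CPM (SD, n = 11), followed by PVN at 56.7 ± 15.2 (n = 10), DMH at 44.3 ± 16.6 (n = 11) and ARC at 27.9 ± 13.3 (n = 9). Penk was highest in PVN at 174.4 ± 38.3 CPM (n = 10), followed by DMH at 126.7 ± 27.4, VMH at 65.2 ± 17.8 and ARC at 58.0 ± 12.6. Cck was highest in DMH at 32.0 ± 12.1 CPM, followed by PVN at 12.7 ± 11.1, ARC at 8.68 ± 11.2 and VMH at 1.41 ± 1.76.

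**Figure D1:**
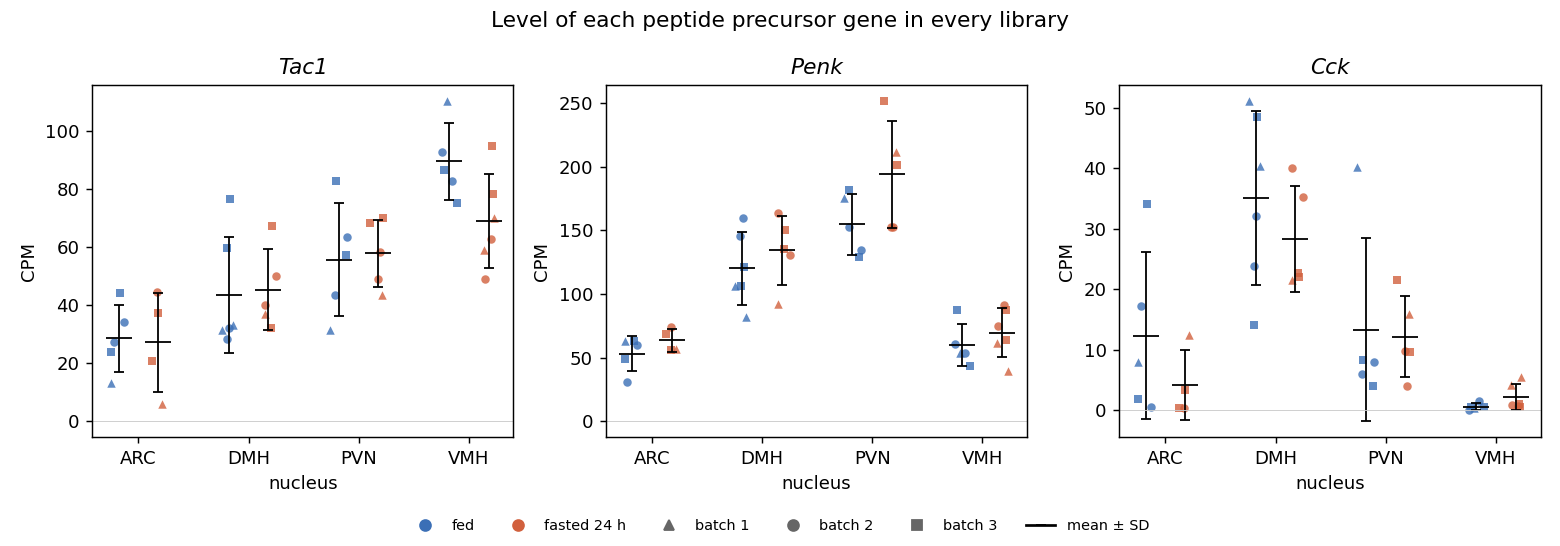
CPM of Tac1, Penk and Cck in each of the 41 libraries, by nucleus, for fed (blue) and fasted (orange) mice, with batches as symbols and the black bars as mean ± SD. Tac1 peaked in VMH (mean of both states 78.3), Penk in PVN (174.4) and Cck in DMH (32.0), and fed and fasted points overlapped in all panels.

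Nuclei were compared within mice on log2(CPM + 0.5), with the mouse as a block and p values adjusted over 10121 genes (limma, threshold 0.1). Of the 18 pairwise tests of the 3 genes, 16 passed, 5 for Tac1, 5 for Penk and 6 for Cck. Among all genes tested the share that passed was 17.6% for DMH against ARC, 16.9% for PVN against ARC, 30.2% for VMH against ARC, 18.5% for PVN against DMH, 22.6% for VMH against DMH and 31.9% for VMH against PVN. Differences between captured nuclei were therefore common over the table.

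Tac1, the tachykinin precursor gene, ranged from 49.0 to 110 CPM in VMH with a median of 78.2, and from 6.08 to 44.4 with a median of 27.4 in ARC. Every VMH library was above every ARC library, which held for 3.91% of all genes tested in that pair. The fitted difference was 1.73 ± 0.22 (log2 ± SE), or 3.31-fold, with an adjusted p of 3.87e-08, and VMH was the higher nucleus in 9 of 9 mice. DMH libraries ran from 28.5 to 76.5 CPM (median 37.0) and PVN libraries from 31.5 to 82.8 (median 57.7), and both overlapped the other nuclei. Tac1 was 0.86 ± 0.22 higher in DMH than in ARC (adjusted p = 0.00438, 7 of 9 mice), 1.21 ± 0.22 higher in PVN than in ARC (adjusted p = 5.37e-05, 9 of 9 mice) and 0.86 ± 0.21 higher in VMH than in DMH (adjusted p = 0.0021, 10 of 10 mice). VMH exceeded PVN by 0.51 ± 0.21 (adjusted p = 0.0652, 8 of 10 mice). That call was lost without batch 1 (0.33, adjusted p = 0.194) and without any of Fed-111, Fed-127 and Fast-311. The difference between PVN and DMH did not pass, at 0.35 with a 95% interval of -0.07 to 0.77 (adjusted p = 0.300), although PVN was higher in 9 of 10 mice.

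The lowest Tac1 values were the ARC libraries of batch 1. These were 6.08 CPM in Fast-86 and 13.1 in Fed-111, against 20.9 to 44.4 in the 7 other ARC libraries. Without batch 1 the differences of DMH, PVN and VMH from ARC still passed the test, the lowest of them for DMH at 0.55 (adjusted p = 0.0582).

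Penk, the enkephalin precursor gene, ranged from 129 to 252 CPM in PVN (median 163.9), from 81.8 to 163 in DMH (median 130.5), from 39.5 to 91.6 in VMH (median 61.3) and from 30.8 to 74.4 in ARC (median 60.2). All PVN libraries were above all VMH and ARC libraries, and all DMH libraries were above all ARC libraries. Such separation occurred in 3.99%, 2.50% and 1.30% of all genes tested in these pairs. PVN exceeded ARC by 1.57 ± 0.15, or 2.96-fold (adjusted p = 5.09e-11, 9 of 9 mice), and DMH exceeded ARC by 1.16 ± 0.15, or 2.24-fold (adjusted p = 1.3e-07, 9 of 9 mice). VMH was 1.43 ± 0.14 below PVN (adjusted p = 9.11e-11) and 1.02 ± 0.14 below DMH (adjusted p = 3.43e-07), and both differences had this sign in 10 of 10 mice. PVN was also above DMH, by 0.40 ± 0.14 (adjusted p = 0.0474, 7 of 10 mice). This call was lost without batch 1 (0.27, adjusted p = 0.240) and without any of Fast-86, Fed-111, Fed-308 and Fast-311.

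Between VMH and ARC no difference in Penk passed the test. It was 0.14 with a 95% interval of -0.16 to 0.43 (adjusted p = 0.548), and VMH was higher in 5 of 9 mice. The gene overlaps A830012C17Rik, which lies on the other strand, and strand use in counting was not stated, so reads of the pair cannot be told apart.

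Cck, the cholecystokinin precursor gene, was found in every DMH library, between 14.1 and 51.1 CPM with a median of 32.2. In VMH it ran from 0 to 5.51 CPM with a median of 0.600, and 7 of 11 VMH libraries were under 1 CPM. These values rest on 0 to 18 reads, with a median of 3. The 1 library without a read (Fed-125) still allows up to 0.518 CPM, the worth of 3 reads at its depth. No DMH library overlapped a VMH library, which held for 2.22% of all genes tested. DMH exceeded VMH by 4.53 ± 0.48 (adjusted p = 1.02e-09, 10 of 10 mice), or 23.1-fold on this scale. Because VMH is near the detection limit the size depended on the pseudocount, with 5.26 at a pseudocount of 0.1 and 3.42 at 2.

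PVN libraries held 3.98 to 40.2 CPM of Cck with a median of 8.90. PVN was 1.50 ± 0.48 below DMH (adjusted p = 0.0272, 10 of 10 mice) and 3.03 ± 0.48 above VMH (adjusted p = 3.12e-06, 10 of 10 mice). The former was at the threshold without Fast-100 (adjusted p = 0.1004). The latter was 3.71 at a pseudocount of 0.1 and 2.06 at 2.

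In ARC, Cck spread more widely than the other precursors did in any nucleus. The fed ARC libraries held 0.456, 1.75, 8.02, 17.3 and 34.0 CPM and the fasted ones 0.358, 0.402, 3.38 and 12.5 CPM, so that each state held values near 0 and values above 10. The coefficient of variation of Cck was 130% in ARC and nearly as large in VMH at its low level, against 87.1% in PVN and 37.9% in DMH. For Tac1 and Penk in ARC it was 47.8% and 21.7%. In the 4 ARC libraries above 5 CPM of Cck the DMH marker Npvf was at 0.304 to 0.422 CPM, and it did not exceed 0.456 in any ARC library. The summed lateral hypothalamic RNA was 11.6 CPM in Fast-86 and 5.06 in Fed-111, which are among these 4 libraries, and at most 2.41 in every other ARC library, those with the most Cck (Fed-308 and Fed-125) included. In both it was mostly Hcrt (10.9 and 3.80 CPM), while Pmch, at 0.608 and 1.27, was below its highest ARC value of 2.01 in Fast-311, a library low in Cck. The part of this RNA in the ARC values of Cck was not tested.

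Cck was 2.87 ± 0.50 higher in DMH than in ARC (adjusted p = 4.28e-05, 8 of 9 mice). ARC was 1.66 ± 0.50 above VMH (adjusted p = 0.0105, 6 of 9 mice), and PVN was 1.36 ± 0.50 above ARC (adjusted p = 0.0618, 7 of 9 mice). The last call did not hold with a pseudocount of 2 (0.90, adjusted p = 0.112) or without any of Fast-100, Fed-111, Fed-127, Fast-311 and Fed-313. At pseudocounts of 0.1 and 2, ARC was above VMH by 2.05 and 1.16. ARC minus DMH was then -3.21 and -2.25.

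**Figure D2:**
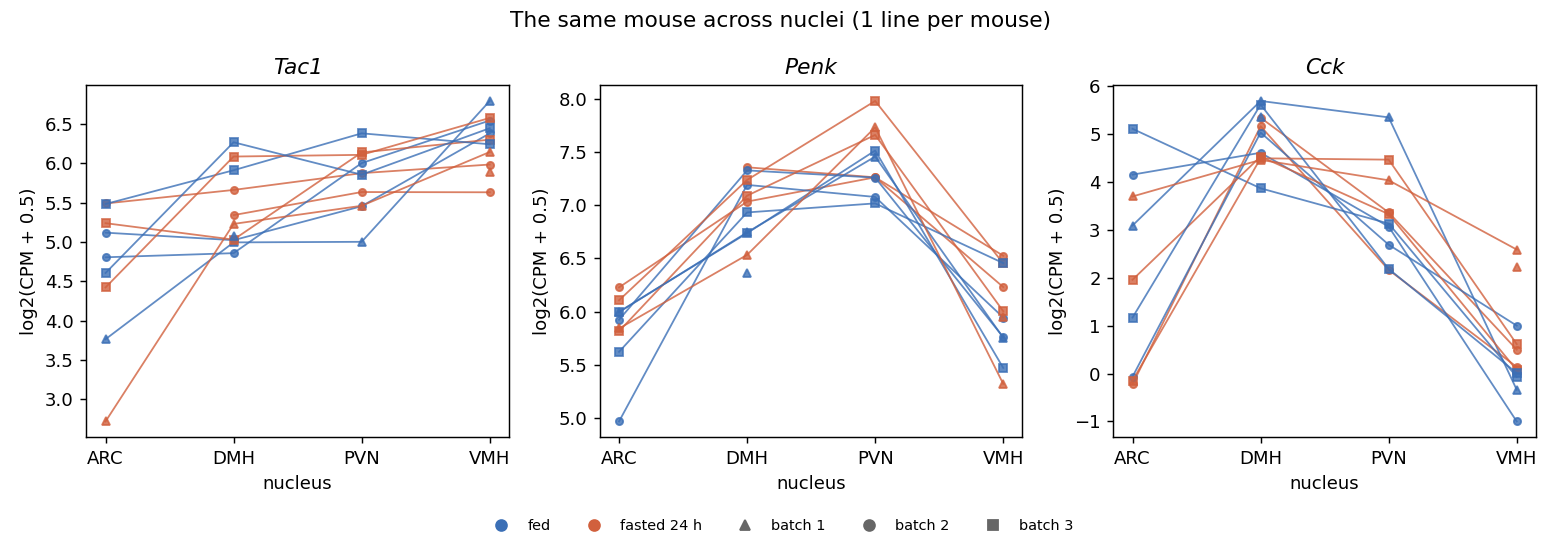
log2(CPM + 0.5) of Tac1, Penk and Cck along the 4 nuclei, with 1 line per mouse (blue fed, orange fasted, symbols for batches, single points for the 2 mice with 1 library). Tac1 lines rose from ARC to VMH in 9 of 9 mice, Penk lines fell from PVN to VMH in 10 of 10 and Cck lines fell from DMH to VMH in 10 of 10.

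Set against the mean of the other 3 nuclei, Tac1 was higher in VMH (1.03 ± 0.17, adjusted p = 7.08e-06) and lower in ARC (-1.27 ± 0.18, adjusted p = 8.5e-07). The share of all genes that passed was 32.2% for VMH, 21.4% for ARC, 23.1% for PVN and 14.4% for DMH. Penk passed in all 4 nuclei, higher in PVN (1.13 ± 0.12) and DMH (0.59 ± 0.12) and lower in ARC (-0.96 ± 0.12) and VMH (-0.77 ± 0.12). Cck was higher in DMH (2.97 ± 0.39, adjusted p = 4.84e-07), lower in VMH (-3.07 ± 0.39, adjusted p = 4.41e-08) and, with a less stable call, higher in PVN (0.96 ± 0.39, adjusted p = 0.0846). In ARC the difference of Cck was -0.86 ± 0.41 (adjusted p = 0.166). Over the settings the Cck difference ran from 2.34 to 3.34 in DMH and from -3.67 to -2.21 in VMH.

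Lateral hypothalamic RNA in the DMH captures, the summed CPM of Hcrt and Pmch, had a median of 337 over the 11 libraries. It was highest in Fed-111 (800), which also had most Cck, at 51.1 CPM. The next highest in Cck, Fed-313 at 48.5 CPM and Fed-92 at 40.3, had low sums of 244 and 238, and Fast-86, with the second sum (606), had 21.5 CPM of Cck. The part of this RNA in the DMH level of Cck was not tested. Transmitter markers differed over the nuclei as well. The GABA markers Gad1 and Slc32a1 together were at 309 to 411 CPM in DMH and 254 to 341 in ARC but at most 49.8 in PVN and 21.5 in VMH. The glutamate marker Slc17a6 was at 404 to 779 CPM in VMH and 235 to 448 in PVN, and at 117 to 254 in DMH and 59.9 to 187 in ARC. Their part in the levels of the precursors was not tested.

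Levels of the 3 genes can be set against each other only per length of RNA. Per kilobase of all annotated exon sequence, with 3399 bases for Tac1, 1634 for Penk and 1305 for Cck, Penk was the highest in 41 of 41 libraries, with a mean level of 65.3 CPM per kilobase against 15.6 for Tac1 and 10.7 for Cck. With the longest coding transcript in place of all exons (1230, 1449 and 799 bases), Penk was highest in 31 of 41 libraries, and in VMH Tac1 was the highest in 9 of 11, at 63.6 ± 14.4 CPM per kilobase against 45.0 ± 12.3 for Penk. Cck exceeded Tac1 in 9 of 11 DMH libraries by the former length and in 7 of 11 by the latter. Which precursor led in VMH thus depended on the length used.

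Fasting was compared with feeding inside each nucleus, with batch as a covariate. None of the 11 tests on the 3 genes passed the threshold with limma, 2 had an unadjusted p under 0.05, and fasted and fed libraries overlapped for each gene in each nucleus. Few genes of the table passed the adjusted test either, 0.367% in PVN, 0.176% in ARC, 0.0208% in VMH and 0.0103% in DMH. In the same order 9.97%, 8.10%, 6.98% and 6.62% had an unadjusted p under 0.05. Over the tests of the 4 nuclei together 1.08% had no overlap between fasted and fed libraries. An exact permutation test of each gene in each nucleus, without batch, gave no adjusted p under 0.444 over its 12 tests.

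Among the tests within single nuclei, the smallest unadjusted p of the 3 genes was for Tac1 in VMH. Fed VMH libraries held 75.1, 82.7, 86.6, 92.7 and 110 CPM, and fasted ones 49.0 to 94.8 with a median of 66.4. The fasted values reached lower, and 4 of the 6 were below the lowest fed value, while the highest was above 4 of the 5 fed values. The difference was -0.40 ± 0.17 (adjusted p = 0.672 with limma). The two-sided exact permutation test gave p = 0.0519. Within batches the difference was -0.77 in batch 1, -0.65 in batch 2 and 0.09 in batch 3, so it did not have the same sign in all batches. The Tac1 difference was -0.18 ± 0.31 in ARC, 0.06 ± 0.24 in DMH and 0.10 ± 0.18 in PVN. With single libraries left out it ran from -0.49 to 0.08 in ARC and from -0.06 to 0.30 in DMH, so neither had a settled sign. In PVN it ran from 0.02 to 0.20, and in VMH from -0.51 to -0.28.

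The fitted fasting difference of Penk was above 0 in each nucleus and passed the test in none. In PVN the fasted libraries held 153, 153, 202, 212 and 252 CPM and the fed ones 129, 134, 153, 175 and 182 CPM. The ranges overlapped between 153 and 182 CPM. The difference was 0.31 ± 0.13 (adjusted p = 0.448 with limma, and p = 0.111 in the exact permutation test), with 0.27, 0.09 and 0.55 in batches 1, 2 and 3. The differences were 0.27 ± 0.23 in ARC, 0.09 ± 0.14 in DMH and 0.27 ± 0.20 in VMH. Within batches the sign was not the same throughout, with -0.15 in batch 1 of ARC, -0.02 and -0.06 in batches 1 and 2 of DMH, and -0.12 in batch 1 of VMH. With single libraries left out the Penk difference ran from 0.20 (without Fed-313) to 0.38 in PVN, from 0.05 (without Fast-100) to 0.40 in ARC, from 0.03 (without Fed-308) to 0.16 in DMH and from 0.13 (without Fed-308) to 0.41 in VMH. Averaged over the nuclei in 1 fit with mouse as a random block, the Penk difference was 0.25 ± 0.10 (95% interval 0.05 to 0.45, adjusted p = 0.234). Of all genes 3.18% passed this test and 13.2% had an unadjusted p under 0.05, Penk among them. In this fit over libraries the difference was 0.34 without Fed-111 (adjusted p = 0.0717), the single mouse whose removal took it past the threshold. The correlation estimated within mice was -0.003, so the fit counted up to 4 libraries of a mouse nearly as separate replicates of its feeding state. With each of the 12 mice as 1 value, a fit added after the data were seen, the Penk difference was 0.24 ± 0.11 (95% interval 0.0015 to 0.48, adjusted p = 0.505 with limma) and 0.0198% of all genes passed.

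For Cck the fasting differences had wide intervals. In ARC the difference was -1.59 ± 0.88, with a 95% interval of -3.43 to 0.25 (adjusted p = 0.665), on the scattered values given above. By batch it was 0.61, -2.26 and -2.23. It was -0.75 without Fed-308 and -1.0 without Fed-125, the fed libraries with most Cck, and reached -2.25 without Fast-86 or Fed-111. The difference was -0.19 ± 0.30 in DMH and 0.19 ± 0.44 in PVN, and with single libraries left out it ran from -0.43 to 0.10 and from -0.15 to 0.56. In PVN the fed libraries held 4.04, 5.95, 7.88, 8.26 and 40.2 CPM and the fasted ones 3.98, 9.54, 9.78, 15.9 and 21.6 CPM. The fed value of 40.2 belonged to Fed-111, and the batch differences of -1.31, -0.12 and 1.24 had opposite signs. In VMH Cck did not pass the filter on low values, with 4 libraries at 1 CPM or more where 5 were needed. Fed VMH libraries held 0, 0.291, 0.452, 0.507 and 1.50 CPM and fasted ones 0.552 to 5.51 with a median of 0.972. The high fasted values, 4.15 CPM in Fast-85 and 5.51 in Fast-86, were both from batch 1, and without the filter the difference was 0.94 ± 0.60 (adjusted p = 0.827). Both libraries also had the most lateral hypothalamic RNA among VMH libraries, at a summed 38.3 and 87.8 CPM of Hcrt and Pmch against at most 36.4 in the others. Close behind Fast-85 were Fed-313 at 36.4 and Fast-100 at 34.5, with 0.507 and 0.600 CPM of Cck. The part of this RNA in the VMH values of Cck was not tested.

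Averaged over the nuclei, Tac1 differed by -0.12 ± 0.14 (adjusted p = 0.787) and Cck by -0.10 ± 0.32 (adjusted p = 0.934). With 1 mouse left out these means ran from -0.25 to -0.04 for Tac1 and from -0.21 to 0.07 for Cck. The intervals of the mean differences reached from -0.40 to 0.16 for Tac1 and from -0.74 to 0.54 for Cck, so changes within these bounds are not excluded. Whether fasting differences varied between nuclei was tested directly, with an adjusted p of 0.961 for Tac1, 0.982 for Penk and 0.923 for Cck (F-test in limma). This test called 0 of 10121 genes, with 563 (5.56%) at an unadjusted p under 0.05.

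**Figure D3:**
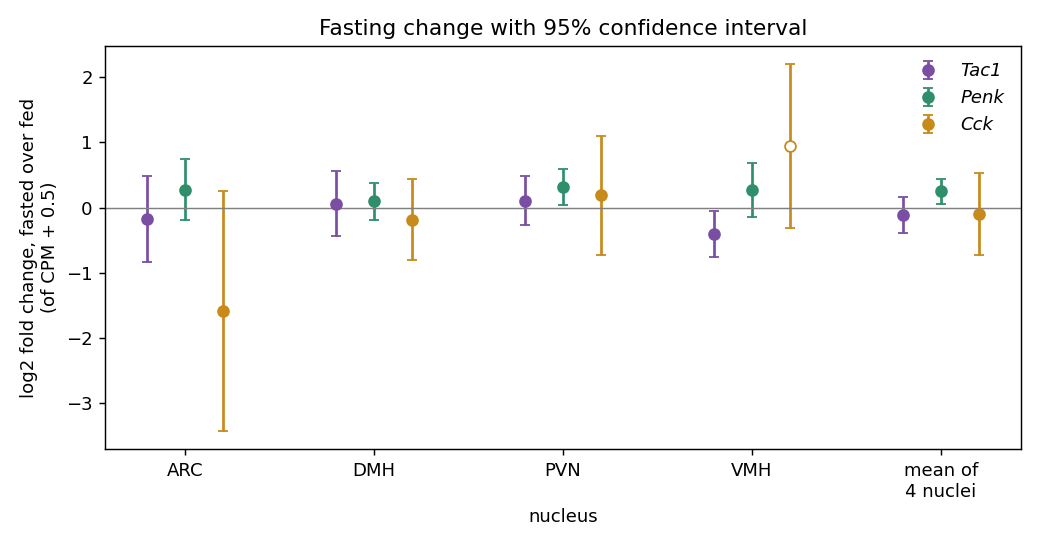
Fasting change of Tac1, Penk and Cck as log2 fold change of CPM + 0.5, fasted over fed, in each nucleus and as the mean of 4 nuclei, with bars as 95% confidence intervals. The open symbol is Cck in VMH, fitted without the filter on low values. The intervals of Tac1 in VMH (-0.40), Penk in PVN (0.31) and the Penk mean (0.25) lie off 0, but no adjusted p was under 0.1.

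Of the 9 receptors on which these peptides and their relatives act, 5 were measured, and the others were not in the expression table. Against the other nuclei 5 of them passed in VMH, 4 in DMH, 3 in PVN and 2 in ARC, where 32.2%, 14.4%, 23.1% and 21.4% of all genes passed. Cckar, a cholecystokinin receptor gene, was at 40.9 to 72.6 CPM in PVN (54.8 ± 10.9, n = 10) and at most 26.3 in any other library, with a difference from the other nuclei of 2.85 ± 0.27. Cckbr, the gene of the other cholecystokinin receptor, was at 21.6 to 54.2 CPM in VMH (33.5 ± 10.3, n = 11), with a difference of 3.53 ± 0.35. The ranges elsewhere started at 0 and ended at 11.3 in ARC, 9.48 in DMH and 23.6 in PVN. VMH was thus the nucleus with least Cck and most Cckbr, while Cckar was lowest there at 3.11 ± 2.49 CPM (difference -3.02 ± 0.27).

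Among the opioid receptor genes, Oprm1 (mu) was highest in DMH at 53.9 ± 23.6 CPM (difference from the other nuclei 1.08 ± 0.17) and lowest in VMH at 14.3 ± 3.72 (-1.28 ± 0.17). The 3 DMH libraries of batch 1 held 87.9, 88.0 and 90.7 CPM of Oprm1 and the other DMH libraries 32.4 to 57.6, and without batch 1 the DMH difference was 0.76 ± 0.15 (adjusted p = 0.000556). Oprd1 (delta) was highest in VMH at 19.4 ± 10.4 CPM (1.53 ± 0.26) and lowest in PVN at 3.08 ± 2.02 (-1.75 ± 0.26), the nucleus with most Penk. Tacr1, the substance P receptor gene, was at 9.37 to 41.7 CPM in ARC (median 19.3) and 9.20 to 26.9 in DMH (18.5), against 1.09 to 20.8 in PVN and 1.95 to 11.7 in VMH, and the differences from the other nuclei, 1.09, 1.02, -1.11 and -1.01, passed the test that 21.4%, 14.4%, 23.1% and 32.2% of all genes passed in these nuclei. VMH was therefore highest in Tac1 and among the lowest in Tacr1, and the reverse was measured in ARC.

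**Figure D4:**
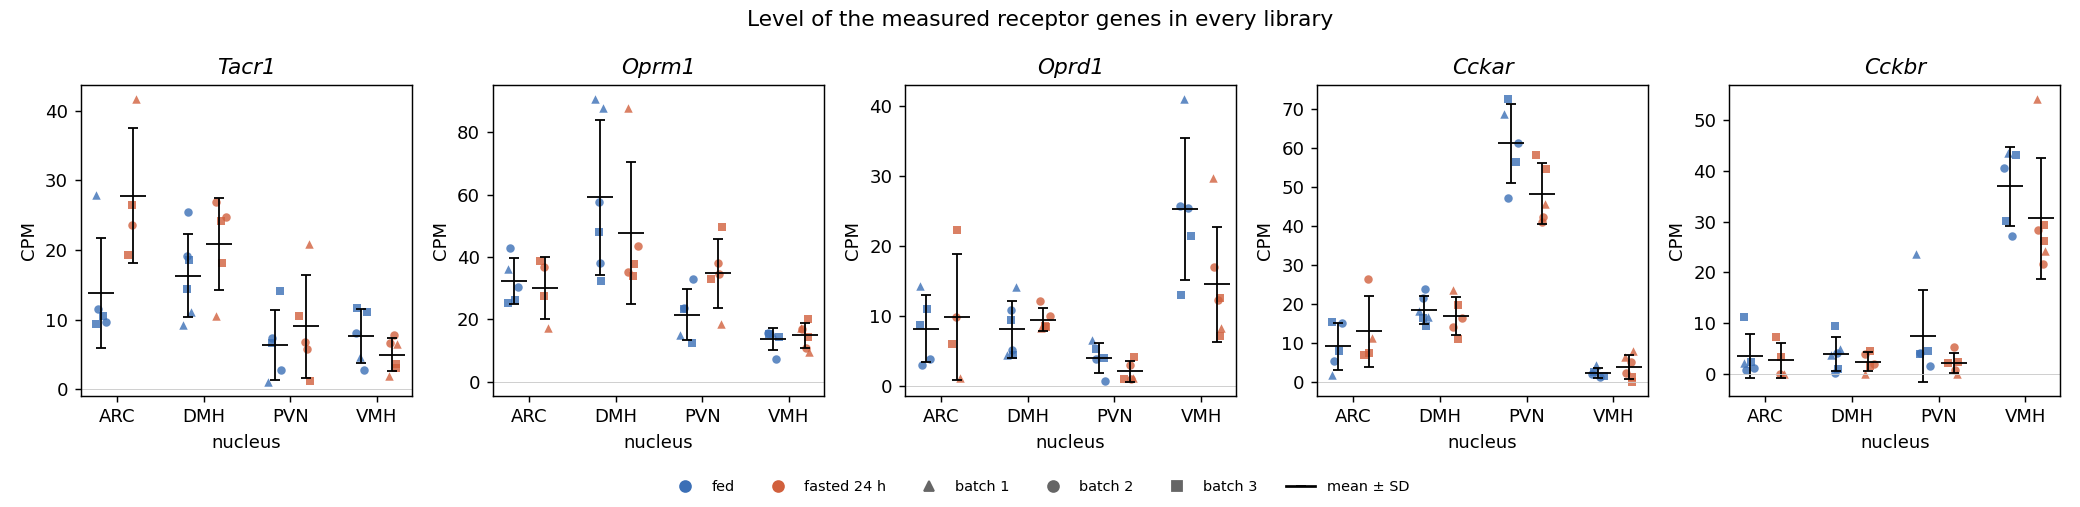
CPM of the 5 measured receptor genes in each library by nucleus, with fed in blue, fasted in orange, batches as symbols and black bars as mean ± SD. Cckar peaked in PVN (54.8), Cckbr and Oprd1 in VMH (33.5 and 19.4), Oprm1 in DMH (53.9) and Tacr1 in ARC and DMH (medians 19.3 and 18.5).

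None of the receptors changed with fasting by the adjusted test in any nucleus (0 of 5 in each). At an unadjusted p under 0.05 there were 2 of the 5 in PVN, 1 in ARC, 1 in VMH and 0 in DMH. Among all genes the adjusted test passed at most 0.367% (PVN), and the unadjusted shares were 9.97% in PVN, 8.10% in ARC, 6.98% in VMH and 6.62% in DMH. The smallest unadjusted p was for Tacr1 in ARC, with a difference of 1.01 ± 0.30 (adjusted p = 0.396 with limma). The medians over the 5 receptors were -0.36 in VMH, -0.34 in PVN, -0.12 in DMH and -0.08 in ARC, and the median over all genes tested was between -5.18e-05 and 0.02.

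The wider lists gave 1 call for fasting among the genes in the expression table, which lacks Agrp and Pomc. Of 12 genes for cutting, trimming and modifying precursors 5 were measured, of 10 for peptide breakdown 4, of 6 related precursors 1 and of 32 other neuropeptides 7, and the only one past the threshold was Npy in ARC, the gene of an appetite-promoting peptide, which rose by 1.35 ± 0.16 (adjusted p = 0.00114, with 0.176% of all genes called in ARC). That call was lost without the batch covariate (1.33, adjusted p = 0.314) and in the joint fit of all nuclei (1.32, adjusted p = 0.566). Against the other nuclei, 2 of the 5 precursor-processing genes passed in VMH (32.2% of all genes), 2 in ARC (21.4%), 1 in PVN (23.1%) and 1 in DMH (14.4%), which is near those shares. Carboxypeptidase E (Cpe), which trims basic residues off cut precursors, was at 1943 ± 425 CPM in PVN and 0.51 ± 0.05 above the other nuclei. Of the 4 breakdown genes 3 passed in PVN, 2 in VMH, 1 in ARC and 0 in DMH, beside the same shares of all genes, and Ece1, for an endothelin-converting enzyme that also cuts neuropeptides, differed by -1.13 ± 0.08 in VMH. The 1 related precursor, prepronociceptin (Pnoc), was highest in ARC at 16.04 ± 9.13 CPM (1.95 ± 0.35 above the other nuclei). Of the 7 other neuropeptides measured, 1 passed as higher and 6 as lower in ARC, and the same counts held in VMH. In PVN 3 were higher and 4 lower, and in DMH 3 and 3, beside the same shares of all genes. Several lower calls were of genes near 0. Crh and Ucn3 averaged 0.09 CPM in ARC, and 0.10 and 0.26 in VMH, and Npvf averaged 0.25 in ARC and PVN. These genes passed the filter on low values through nuclei where they were higher, so such lower calls were largely fixed beforehand. The list holds Npy, Avp and Npvf, which served above as nucleus markers, and the lateral hypothalamic genes Hcrt and Pmch. Pmch was the gene higher in VMH (1.50), at 28.3 CPM on average against 277 in DMH. Hcrt (6.31) and Pmch (6.21) were among those higher in DMH.

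Genes were ranked by the likeness of their pattern to each precursor, as Pearson's r of log2(CPM + 0.5) over the 41 libraries among 7638 genes with a mean of at least 5 CPM. These libraries share mice, batches and nuclei, so r describes the pattern only. Nearest to Tac1 were Bhlhe41 (0.81), Prag1 (0.78) and Slc17a6 (0.78), the glutamate transporter gene named above. Nearest to Penk were Ubash3b (0.82), Grin3a (0.81) and Reln (0.81). Among those nearest to Cck were Rph3a (0.76) and Syt10 (0.74). After each nucleus was centred on its mean, r was 0.56, 0.51 and 0.44 for the genes nearest to Tac1, 0.19, -0.09 and -0.12 for those nearest to Penk, and 0.32 and 0.31 for the pair named for Cck. The likeness of the Penk genes thus lay between nuclei rather than within them. Between the precursors r was 0.14 for Tac1 and Penk, -0.32 for Tac1 and Cck and 0.50 for Penk and Cck, and 0.04, -0.28 and -0.14 after centring.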

How the data were processed

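The authors deposited CPM per Ensembl gene, read counts scaled to a common total per library. Nuclei were laser-captured from frozen sections, total RNA was amplified (Ovation RNA-Seq System V2), libraries were made in 3 batches and outlier libraries were left out, per the labels and methods. The submitters' processing notes name CASAVA 1.7, TopHat2 2.0.11, Cufflinks 2.2.1, edgeR, limma and GRCm38. The program that counted reads and its use of strand are not given in the sources used here. Amplified reads are not independent molecules, so the read floor covers counting error only.

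Of 43 columns, 41 were matched to samples by nucleus, state and mouse. The 2 other columns carry the mice Fast-85 and Fed-92 under ARC, whereas the labels give PVN samples of these mice. The labels do not settle which nucleus they hold, so both columns and both samples were left out of the ARC and PVN groups. Symbols, coordinates and lengths came from GENCODE M21 (9891 of 10127 genes matched). The table holds part of the annotated genes, and a library's CPM summed to between 554896 and 689010. It lacks a range of Ensembl identifiers that covers 6725 annotated genes. Genes listed as not measured were not found in it by symbol, which does not show that they were not expressed. Agrp and Pomc, which the paper reports in ARC, were among them. Depth was read from the step between low values, of which 96.9% to 98.8% were whole multiples within 0.02 reads. Because some values were not whole reads, no count test was run.

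Tests used limma 3.58.1 in R 4.3.3 on log2(CPM + 0.5) (lmFit, eBayes with trend), two-sided, with Benjamini-Hochberg adjustment over all genes kept and a threshold of 0.1 (the level the study uses). Fold changes on this scale understate those of low genes. Fasting per nucleus had batch as covariate, and genes needed 1 CPM in a number of libraries equal to the smaller group. Nucleus levels had the mouse as a fixed block, since the nuclei came from the same mice, with nucleus and nucleus by state terms, and genes were kept at 1 CPM in at least 4 libraries. The 2 mice with 1 library each then add nothing, which leaves 39 libraries of 10 mice. The mean over nuclei had batch and mouse as a random block, and was also fitted with 1 value per mouse (log2 values centred by nucleus and averaged, weighted by the number of libraries, no trend). Inside a nucleus each mouse was 1 replicate. Alternatives were other pseudocounts, filters, scalings, blocks and weights, an exact permutation test, and leaving out each mouse, each library or batch 1.

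Genes named were the 3 precursors, the measured receptors, list genes past the threshold for fasting, and the 3 genes most like each precursor, of which 1 for Cck is not reported here. Cpe, Ece1 and Pnoc and the nucleus, transmitter and lateral hypothalamic markers were named beside results after their values were seen. The members and lists were chosen with earlier results of these data known.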

Additional observations from a re-analysis of the deposited data

Results flagged for a closer look

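In groups of 4 to 6 libraries, a library was taken as standing apart when its gap to the nearest other exceeded Dixon's critical share of the range. Over 64 groups of the 3 precursors and 5 receptors, 7 did so, where chance gives about 1 in 20, or 3.2. Only 1 concerned a precursor, Cck in PVN of Fed-111, at 40.2 CPM against 4.04 to 8.26 in the other fed PVN libraries. The same library stood apart for Cckbr, at 23.6 CPM against 1.53 to 4.52. ARC of Fed-111 stood apart for Tacr1, at 27.8 CPM against 9.37 to 11.5. Oprm1 was at 88.0 CPM in DMH of Fast-86 against 33.9 to 43.4 in the other fasted DMH libraries, but the fed DMH libraries of batch 1, the batch of Fast-86, were as high (87.9 and 90.7). Oprm1 was also apart at 7.25 in VMH of Fed-127 against 14.3 to 15.7. Cckbr was at 11.3 CPM in ARC of Fed-313 against 0.847 to 2.28, and at 54.2 in VMH of Fast-85 against 21.6 to 29.4.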

How the results depend on the processing

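Over 47 results on the precursors, 431 of 436 values from other settings and 523 of 544 values with a mouse or library left out kept the direction and the side of the threshold where a call was made, and 0 called results reversed. Uncalled results count as kept whatever their sign, and 15 values in 6 of them had the other sign. These were the fasting differences of Tac1 in ARC and DMH and of Cck in DMH, in PVN and as the mean over nuclei, and Tac1 in DMH against the other nuclei. With a pseudocount of 2, Cck in PVN no longer differed by the test from ARC (0.90) or from the other nuclei (0.54). Without batch 1 the same held for Penk in PVN against DMH (0.27), Tac1 in VMH against PVN (0.33) and Cck in PVN against the others (0.85). With 1 mouse left out, values ran from 0.99 to 1.69 for Cck in PVN against ARC, -1.67 to -1.28 against DMH and 0.73 to 1.08 against the others, from -1.21 to -0.49 for Cck in ARC against the others, from 0.32 to 0.48 for Penk in PVN against DMH, from 0.38 to 0.62 for Tac1 in VMH against PVN and from 0.19 to 0.34 for the mean fasting difference of Penk. Within each of these ranges at least 1 fit lost or gained the call, and the cause was not tested.

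Without the mouse block Tac1 in VMH exceeded PVN by 0.53 (adjusted p = 0.0365) and the mean fasting difference of Penk was 0.25 (adjusted p = 0.241), and neither dropping the block nor making it random changed a call. No paired analysis was possible for fasting inside a nucleus because fasted and fed libraries came from different mice.

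Fasting calls over all genes depended on the settings, while the precursors had none to lose inside a nucleus. The 17 calls in ARC became 4 with a pseudocount of 0.1, 5 without the filter, 5 in the joint fit, 6 without batch 1 and 0 without the batch covariate (604 at an unadjusted p under 0.05, with Npy not called), and 3 to 23 with a mouse left out. The 35 in PVN became 3 without the batch covariate and 79 with array weights, and 2 to 31 with a mouse left out. The 2 in VMH ran from 1 to 5 and the 1 in DMH from 0 to 3. The 322 for the mean over nuclei became 14 without the batch covariate and 155 to 352 with a mouse left out. They became 2 in the fit with 1 value per mouse (996 at an unadjusted p under 0.05). That fit also used weights and no trend, so its count does not rest on 1 change alone. Depth limits Cck most, since VMH values rest on at most 18 reads.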
